A study of Mus musculus with 4 samples.

Results

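The genes described here encode the T cell receptor complex and the proteins that act directly below it: the CD3 chains, the CD4 coreceptor, kinases, adaptors, enzymes, negative regulators and NFAT transcription factors. The members were named as a list of 41 genes, and every probe set that the platform annotation gives to exactly 1 of them was read; 40 of the 41 had such a probe set, against 18193 genes on the whole array. Lck, the Src family kinase that starts the cascade, was not analysed here, because no probe set is listed for it alone. The data were 4 populations of CD4+ T cells from mice of 5 to 8 weeks that carry GFP knocked into Foxp3, the gene of the transcription factor that defines regulatory T cells. Cells from the spleens and lymph nodes of 25 male B6/129 F2 mice were pooled, and those carrying DX5, NK1.1, CD11b, B220 or CD8 were removed. The CD4+ cells left were sorted by GFP, which reports Foxp3, and by CD25 (IL-2 receptor alpha chain). This gave Foxp3+ cells that were CD25hi or CD25lo, and Foxp3- cells that were CD25+ or CD25-, and all 4 populations shared the knock-in allele, the mouse pool and 2 cycles of in vitro RNA amplification. Each was read on 1 Affymetrix Mouse Genome 430 2.0 array, so there were no replicates, differences are given by size alone, and the number of arrays limits the precision.

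When the receptor meets peptide on an MHC molecule, Src family kinases phosphorylate the CD3 and zeta chains, and ZAP-70 docks there and phosphorylates the adaptors LAT and SLP-76. These adaptors gather phospholipase C-gamma, VAV and exchange factors, which open the calcium, diacylglycerol, NF-kappa B and Ras branches. Phosphatases, ubiquitin ligases and diacylglycerol kinases damp the signal at each step. Regulatory T cells depend on receptor signals for their development and function, and CD25 is itself a gene that activated T cells switch on.

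Of the genes used for the sort, Foxp3 matched the labels: it read 1308 in CD25hi and 1117 in CD25lo Foxp3+ cells, then 16.8 in CD25+ and 17.6 in CD25- Foxp3- cells; all values below are deposited probe set intensities on a linear scale, given in this order. Il2ra, which encodes CD25, read 1562, 288, 283 and 22.3, so the array labelled CD25lo Foxp3+ and the array labelled CD25+ Foxp3- were alike in it. The arrays had median intensities between 15.03 and 15.63. Intensities under 10.12, the 40th percentile of all values, were set to it, and a gene counted as measured if its highest intensity reached 32.49, the 60th percentile. All 40 members passed this filter and reached it in all 4 arrays, so none entered through 1 population alone. In bulk samples such as these, fewer cells of a type and less RNA per cell cannot be told apart.

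The members were expressed in all 4 populations and most differed little among them. The highest of a member's 4 intensities was between 1.14 and 3.43 times the lowest, with a median of 1.69, against a median of 1.68 over the 9622 measured genes, whose widest range was 118-fold. Of the 40 members, 9 spanned at least 2-fold (Cd2, Txk, Lcp2, Grap2, Trat1, Nck1, Cbl, Sla and Dgka), which is 22.5%, against 32.6% of measured genes. What the members shared was the array in which they read low. In 25 of 40 members (62.5%) the lowest intensity was in CD25+ Foxp3- cells, against 30.6% of measured genes. Only 1 member, Zap70, was highest there (2.5%, against 30.1% of measured genes). In 20 members (50%) the highest intensity was in CD25- Foxp3- cells, against 30.7%, and in 13 (32.5%) it was in CD25lo Foxp3+ cells, against 21.5%. The order of the arrays within a gene carries no size, and many of these orders rest on small differences. Of 9 measured B cell markers 6 were highest in CD25+ Foxp3- cells, but Ms4a1, Ighm and Cd79b were highest elsewhere. All 3 measured gamma delta T or NKT cell markers were highest in CD25+ Foxp3- cells, with Blk in both lists. The same peak held for 5 of 11 CD8 T and NK cell and 3 of 8 myeloid markers. It held for 1 of 4 red cell and 0 of 6 CD4 T cell markers. Of the markers with this peak, Zbtb16, Blk, Ncr1, Klrk1, Fcer1g and Adgre1 reached the filter in CD25+ Foxp3- cells alone. For these the filter itself fixed which array was highest. Any link of the markers to the members' low readings was not tested.

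**Figure D1:**
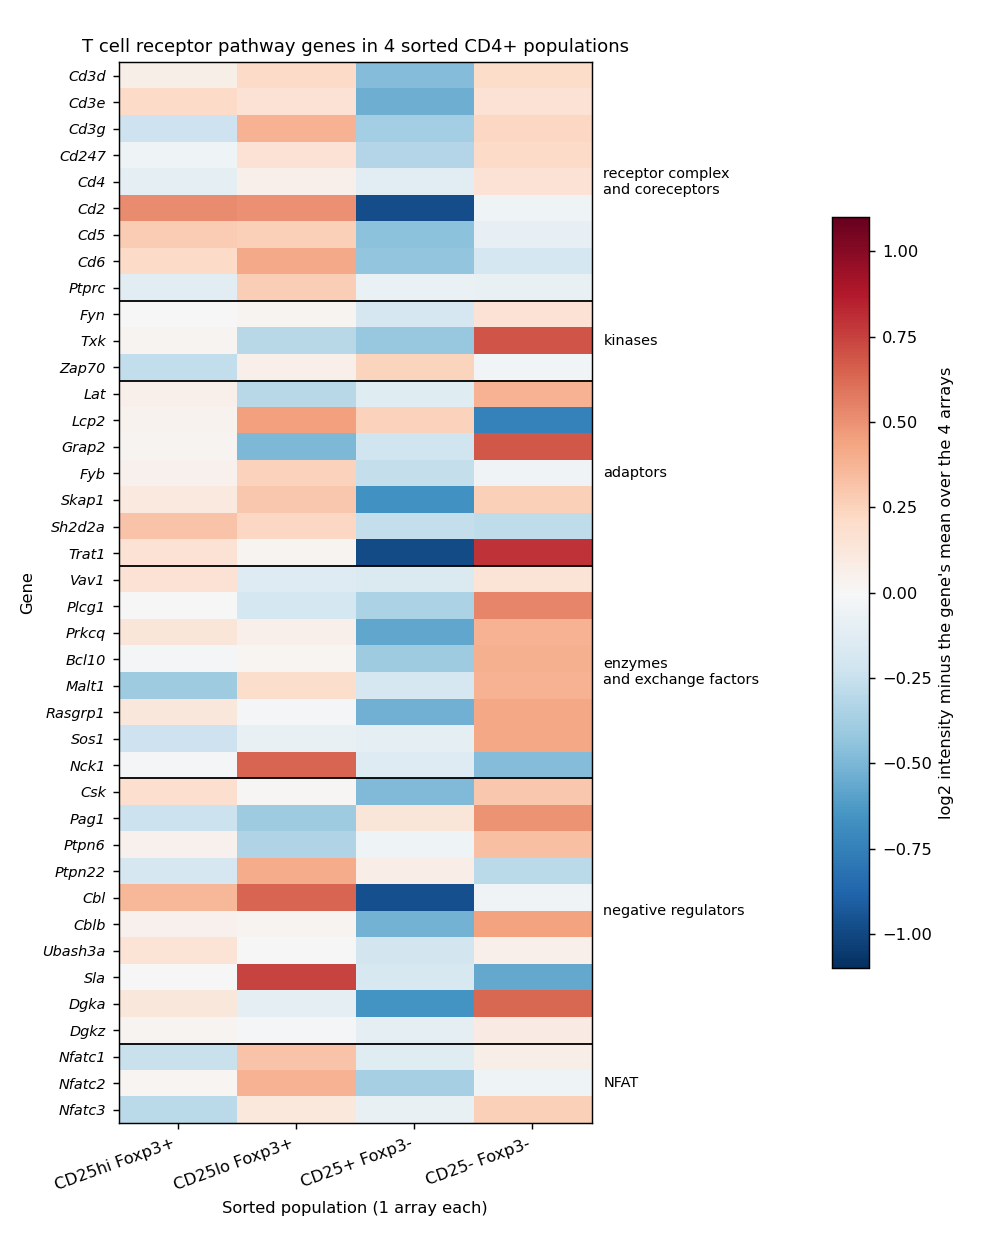
Intensity of 40 T cell receptor pathway genes (rows, grouped by role) in the 4 sorted populations (columns, 1 array each), as log2 intensity minus the gene's mean over the 4 arrays. The CD25+ Foxp3- column is the lowest in 25 of the 40 rows, and Cd2, Trat1 and Cbl are the darkest there.

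By the size rules used here, no member stood apart by Foxp3, and few measured genes did. A gene was counted as apart by Foxp3 if the lower of its Foxp3+ arrays stood at least 1.5-fold above the higher of its Foxp3- arrays, or the reverse, and 0 of 40 members passed in either direction, against 2.8% of measured genes higher and 1.93% lower in Foxp3+ cells. With the arrays centred on their common median 1 member passed. The widest gaps upward were 1.46-fold, for Cd2, and 1.4-fold, for Sh2d2a. Downward the widest gap was 1.3-fold, for Pag1. By the CD25 labels, with CD25hi Foxp3+ and CD25+ Foxp3- against the other arrays, 0 members passed, against 1.1% of genes higher and 0.187% lower. Il2ra itself would not pass, at 288 in CD25lo Foxp3+ and 283 in CD25+ Foxp3- cells. This pairing therefore does not order the arrays by CD25 level, and its count cannot show whether members follow CD25. The remaining pairing sets CD25hi Foxp3+ and CD25- Foxp3- against CD25lo Foxp3+ and CD25+ Foxp3- and follows neither marker as labelled. It held 0 members too, against 1.45% of genes higher and 1.6% lower in the first pair. All these shares are small, so a count of 0 in 40 members lies near them.

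Where members stood apart, it was mostly in 1 array, and most often low in CD25+ Foxp3- cells. In all, 6 of 40 members (15%) lay at least 1.5-fold below the lowest of the other 3 arrays in CD25+ Foxp3- cells, against 4.2% of measured genes. They were Cd3e, Cd2, Skap1, Trat1, Prkcq and Cbl. Under the alternatives of processing named below, the count set apart low in CD25+ Foxp3- cells ran from 4 to 7. In the upward direction that array set apart 0 members, against 8.39% of genes. CD25- Foxp3- cells stood above the other arrays in 3 members, Txk, Grap2 and Trat1, against 4.78% of genes, and below them in 1, Lcp2, against 7.47%. CD25lo Foxp3+ cells stood above the rest in 2 members, Nck1 and Sla, against 2.84%, and below in 0, against 3.71%. CD25hi Foxp3+ cells set apart 0 members upward, against 1.47%, and 0 downward, against 1.14%.

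The promoters of the members set apart low in CD25+ Foxp3- cells are shown because these genes read low together; RefSeq (GRCm38.p6) gave an entry for 4 of the 6, and Cd2 and Skap1 are named only. Each sequence is the 250 bases before the annotated start, 5′ to 3′ on the gene's strand. Capitals mark matches, on either strand, to 4 motifs of factors known in T cells: ETS (AGGAAG), RUNX (TGTGGT), E protein (CAGGTG) and forkhead (TGTTTA), none of which overlaps another here.
Cd3e, chr9:45009612-45009861, minus strand: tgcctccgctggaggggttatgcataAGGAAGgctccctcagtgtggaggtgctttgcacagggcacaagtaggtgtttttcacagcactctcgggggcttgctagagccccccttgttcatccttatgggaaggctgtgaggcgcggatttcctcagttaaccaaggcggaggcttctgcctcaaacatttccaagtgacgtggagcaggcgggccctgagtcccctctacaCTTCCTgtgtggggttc
Trat1, chr16:48772063-48772312, minus strand: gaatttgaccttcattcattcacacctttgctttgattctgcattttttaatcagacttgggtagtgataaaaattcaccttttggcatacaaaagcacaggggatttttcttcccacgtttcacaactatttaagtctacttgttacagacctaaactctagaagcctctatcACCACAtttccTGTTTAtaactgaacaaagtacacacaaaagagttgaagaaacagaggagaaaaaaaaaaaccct
Prkcq, chr2:11172132-11172381, plus strand: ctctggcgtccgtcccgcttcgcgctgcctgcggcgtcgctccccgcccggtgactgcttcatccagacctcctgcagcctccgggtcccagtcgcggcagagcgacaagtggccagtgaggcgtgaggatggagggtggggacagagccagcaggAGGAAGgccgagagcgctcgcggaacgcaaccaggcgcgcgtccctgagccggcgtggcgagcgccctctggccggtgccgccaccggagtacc
Cbl, chr9:44234047-44234296, minus strand: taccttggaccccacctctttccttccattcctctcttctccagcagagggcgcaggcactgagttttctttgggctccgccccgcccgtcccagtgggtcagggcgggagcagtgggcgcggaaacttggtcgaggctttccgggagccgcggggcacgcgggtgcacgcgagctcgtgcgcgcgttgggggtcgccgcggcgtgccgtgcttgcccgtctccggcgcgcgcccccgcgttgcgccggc
The Cd3e window held 2 ETS matches, the Prkcq window 1 ETS match, the Trat1 window 1 RUNX and 1 forkhead match, and the Cbl window held none of the 4 motifs. No motif was therefore common to these 4 windows. Over the 44 windows listed for 31 members, an ETS match was found in 26 (59.1%), against 29.5% of all 32851 windows of this length. An E protein match was found in 13 (29.5%), against 17.2% of all windows. RUNX was found in 5 (11.4%, against 14.0%) and forkhead in 6 (13.6%, against 12.0%). A match is a description of the letters and does not show that a factor binds there.

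The receptor complex itself was lower in CD25+ Foxp3- cells than in the other populations. Cd3d, one of the CD3 signalling chains, read 9007, 9946, 6179 and 9886. Cd3e, the chain paired with CD3 delta and CD3 gamma, read 837, 806, 497 and 808. The CD25+ Foxp3- array was the low one for both, and the other 3 arrays lay close together; Cd3e was 1.62-fold below the next lowest array. Cd3g, the CD3 gamma chain, read 3168, 4845, 2862 and 4356. Cd247, the zeta chain that carries most of the phosphorylation sites, read 4884, 5634, 4041 and 5838. Both were again lowest in CD25+ Foxp3- cells, but CD25hi Foxp3+ cells came next and lay only 1.11-fold (Cd3g) and 1.21-fold (Cd247) above. A weaker Cd247 probe set, 1420716_at, read 109.6, 58.4, 58.6 and 89.7, with both CD25lo Foxp3+ and CD25+ Foxp3- cells low.

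Among the accessory receptors, Cd2, an adhesion and costimulatory receptor that binds CD48 in mice, was the member furthest above CD25+ Foxp3- cells in the CD25hi Foxp3+ array. It read 10149, 10028, 3604 and 6847. The Foxp3+ arrays were alike and the highest, CD25- Foxp3- cells were intermediate, and CD25+ Foxp3- cells were 1.9-fold below those. Cd5 (1.67-fold from lowest to highest) and Cd6 (1.81-fold), scavenger receptor family members that set the strength of the signal, had the same order of Foxp3+ above Foxp3- arrays but smaller gaps. The coreceptor Cd4, on which all 4 populations were sorted, spanned 1.21-fold, and Ptprc, the phosphatase CD45, 1.3-fold. Of the 9 genes of this group, 8 were lowest in CD25+ Foxp3- cells, the exception being Ptprc. Cd4 was lowest there by only 1.01-fold, and its other probe set, 1427779_a_at, was highest there, at 308, 438, 460 and 343. The other Ptprc probe set, 1440165_at, was lowest there, at 668, 810, 558 and 821.

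The kinases had no common order. Fyn, a Src family kinase, read 5648, 5748, 4955 and 6284, a 1.27-fold range. Txk, a Tec family kinase, read 408, 323, 300.1 and 645. CD25- Foxp3- cells were the high population for Txk, 1.58-fold above the next array and 2.15-fold above CD25+ Foxp3- cells. Zap70, the kinase that binds the phosphorylated zeta chain, read 1454, 1823, 2072 and 1719. It was highest in CD25+ Foxp3- cells and lowest in CD25hi Foxp3+ cells, over a range of 1.43-fold. A further Zap70 probe set, 1440178_x_at, had the same highest and lowest arrays, at 343, 413, 548 and 423. A dim Zap70 probe set, 1439749_at, had the reverse order of these arrays over a small range, at 46.2, 45.0, 38.6 and 44.2.

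The adaptors varied in opposite directions within 1 complex. Lat, the membrane scaffold, read 4865, 3786, 4270.3 and 6115. Grap2 (GADS), which links LAT to SLP-76, read 172, 119, 144 and 269. Lcp2, which encodes SLP-76, read 2743, 3638, 3184 and 1597. Lat and Grap2 were thus highest in CD25- Foxp3- cells and lowest in CD25lo Foxp3+ cells, and Lcp2 was the reverse: in CD25lo relative to CD25- Foxp3- cells Grap2 was 2.26-fold lower and Lcp2 2.28-fold higher. A further Grap2 probe set, 1460280_at, read 163, 67.1, 80.2 and 169, so there CD25hi Foxp3+ and CD25- Foxp3- cells were alike. For Lcp2 the other probe set, 1418642_at, read 223, 306, 231 and 214, with the same highest and lowest arrays over a narrower range.

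Trat1 had the widest range of all members. It encodes TRIM, a transmembrane adaptor that associates with the receptor and the zeta chain. It read 1188, 1082, 537 and 1844: the Foxp3+ arrays were alike, CD25- Foxp3- cells were 1.55-fold above them and CD25+ Foxp3- cells 2.01-fold below, which made 3.43-fold between the Foxp3- arrays. A further Trat1 probe set, 1427532_at, had the same highest and lowest arrays at 798, 914, 761 and 1403, but there CD25+ Foxp3- cells were close to the Foxp3+ arrays. Skap1, which couples the receptor to integrin activation, read 3676, 4187, 2144 and 4096. CD25+ Foxp3- cells were 1.71-fold below the next array for Skap1, and all 3 of its measured probe sets were lowest there. Fyb (ADAP), the partner of SKAP1, spanned 1.43-fold with the same lowest array, and Sh2d2a, an adaptor that binds LCK, spanned 1.51-fold with both Foxp3+ arrays above both Foxp3- arrays.

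The enzymes and exchange factors that carry the signal to calcium, Ras and NF-kappa B were lowest in CD25+ Foxp3- cells in 5 of 8 genes and highest in CD25- Foxp3- cells in 6 of 8. Prkcq, protein kinase C-theta, read 4510.5, 4277, 2766 and 5362. Rasgrp1, the diacylglycerol-activated exchange factor for Ras, read 4494, 4060.4, 2844 and 5523. Plcg1, phospholipase C-gamma 1, read 1850.5, 1617, 1452 and 2677. In all 3 genes CD25+ Foxp3- cells were the lowest and CD25- Foxp3- cells the highest, by 1.94-fold (Prkcq), 1.94-fold (Rasgrp1) and 1.84-fold (Plcg1). Of this group the 1.5-fold rule for CD25+ Foxp3- cells took in Prkcq, which stood 1.55-fold below the next array, and left Rasgrp1 just outside at 1.43-fold. A dim Rasgrp1 probe set, 1450143_at, ran otherwise, at 90.1, 109, 103 and 75.2.

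Bcl10 and Malt1 form the complex through which protein kinase C-theta reaches NF-kappa B. Bcl10 read 1117, 1152, 866 and 1490.0, with CD25- Foxp3- cells highest. Of its weaker probe sets, 1418971_x_at kept CD25- Foxp3- cells highest at 737, 735, 509 and 1099. By contrast 1418972_at, at 195.0, 334, 258 and 167, had them lowest, and 1443524_x_at, at 181, 199, 235 and 202, had CD25+ Foxp3- cells highest. Malt1, the protease of the complex, read 277, 415, 319.9 and 473, with CD25hi Foxp3+ cells lowest. Vav1, the exchange factor for Rac, spanned 1.24-fold and Sos1, which acts on Ras, 1.57-fold. Nck1, an adaptor to the actin cytoskeleton that binds the CD3 epsilon chain, was unlike the rest of the group. It read 614, 972, 564 and 448, which put CD25lo Foxp3+ cells 1.58-fold above the next array and 2.17-fold above CD25- Foxp3- cells. The weaker Nck1 probe sets did not follow this: 1424543_at read 37.1, 45.3, 35.1 and 49.7, and 1447271_at read 36.0, 56.5, 46.6 and 62.5, each with CD25- Foxp3- cells highest.

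Among negative regulators, the ubiquitin ligase Cbl read 1535, 1857, 608 and 1159. CD25+ Foxp3- cells were low, 1.91-fold below CD25- Foxp3- cells and 3.05-fold below CD25lo Foxp3+ cells. A further Cbl probe set, 1434829_at, read 924, 1094, 588 and 624, so that there the Foxp3- arrays were alike. Its relative Cblb, whose loss lets T cells respond without costimulation, read 793, 782, 536 and 1044, also lowest in CD25+ Foxp3- cells but highest in CD25- Foxp3- cells. A further Cblb probe set, 1455082_at, read 843, 733, 644 and 624, with the Foxp3- arrays lowest.

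Diacylglycerol kinases end the Ras and protein kinase C branches by converting their second messenger. Dgka read 9033, 7765, 5247 and 12864. Dgkz read 7552, 7306, 6855 and 7832. The order of the arrays was the same in both, but Dgka spanned 2.45-fold, with CD25+ Foxp3- cells low and CD25- Foxp3- cells high, and Dgkz spanned 1.14-fold, the narrowest range of all members. A weaker Dgkz probe set, 1426738_at, had another order and a 1.46-fold range, at 622.5, 534, 426 and 466. There CD25hi Foxp3+ cells were highest and CD25+ Foxp3- cells lowest.

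Sla, which encodes the Src-like adaptor protein SLAP that promotes loss of the receptor's zeta chain, was the negative regulator set apart in CD25lo Foxp3+ cells. It read 6354, 10697, 5649 and 4319, so CD25lo Foxp3+ cells were 1.68-fold above the next array and 2.48-fold above CD25- Foxp3- cells. All 4 Sla probe sets were highest in CD25lo Foxp3+ cells. Of the others, 1420818_at read 557, 1494, 536 and 258, 1447813_x_at read 776, 1506, 939 and 456, and 1441761_at read 390.4, 684, 203 and 218. By 1441761_at the Foxp3+ arrays stood above the Foxp3- arrays by more than 1.5-fold, and Sla was the 1 member for which any probe set passed the rule for Foxp3 upward, against 3.35% of measured genes.

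The remaining negative regulators stayed within narrower ranges. Csk and Pag1 act together, the kinase CSK being held by PAG at the membrane, where it switches off Src family kinases. Csk spanned 1.72-fold, with CD25+ Foxp3- cells lowest, and Pag1 1.84-fold, with CD25lo Foxp3+ cells lowest. The phosphatases Ptpn6 (SHP-1) and Ptpn22 spanned 1.58-fold and 1.63-fold in opposite orders: CD25lo Foxp3+ cells were lowest for Ptpn6 and highest for Ptpn22, and CD25- Foxp3- cells were highest for Ptpn6 and lowest for Ptpn22. Ubash3a, a phosphatase-like suppressor of receptor signalling, spanned 1.28-fold. Weaker probe sets of Pag1 and Ubash3a had wider ranges with CD25- Foxp3- cells highest: 1456403_at of Pag1 read 65.1, 42.4, 41.8 and 86.8, and 1431698_at of Ubash3a read 182, 146, 102 and 246. In all, 28 members passed none of the rules, and their ranges ran from 1.14-fold to 1.95-fold, with a median of 1.6. The share of measured genes past none of the rules is not given here, so this count cannot be read as a result about the members.

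NFAT factors enter the nucleus when calcium activates calcineurin. Nfatc1 read 1171, 1719.5, 1268 and 1447. Nfatc2 read 754, 966, 577 and 718. Nfatc3 read 1240.3, 1654, 1441 and 1828. All 3 were higher in CD25lo than in CD25hi Foxp3+ cells and lower in CD25+ than in CD25- Foxp3- cells, with ranges of 1.47-fold, 1.68-fold and 1.47-fold. A further Nfatc3 probe set, 1452497_a_at, turned the Foxp3+ part of this order, at 721, 458, 443 and 946.

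For Nfatc1 and Malt1 the reading depended on the probe set. Nfatc1, which has a short form made from an inducible promoter, had 5 probe sets. Probe set 1425761_a_at read 122, 428, 368 and 108, 1447084_at read 65.3, 113, 153 and 52.4, and 1447085_s_at read 26.8, 57.6, 42.9 and 27.3. In all 3, CD25lo Foxp3+ and CD25+ Foxp3- cells stood at least 1.5-fold above CD25hi Foxp3+ and CD25- Foxp3- cells. Probe set 1417621_at read 730.3, 1372, 828 and 762 and was highest in CD25lo Foxp3+ cells. For Malt1, 2 of 3 probe sets differed from the one read as the gene in the same way: 1445068_at read 74.7, 263, 150.0 and 95.3, and 1456126_at read 229.6, 528, 513 and 252. The transcripts that each probe set detects were not determined here.

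**Figure D2:**
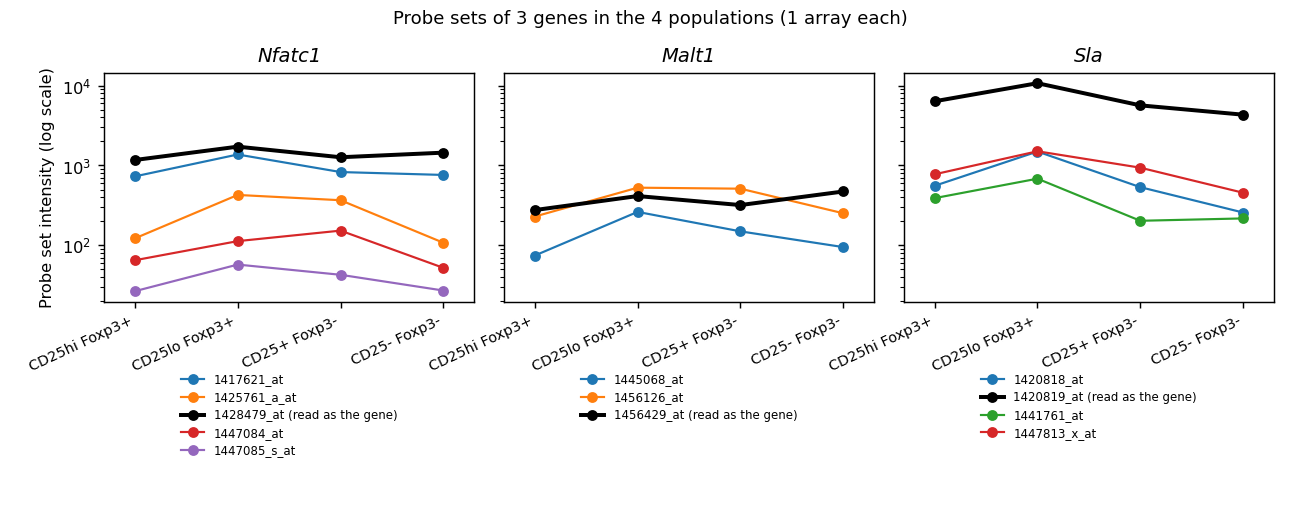
Intensity (log scale) of each probe set of Nfatc1, Malt1 and Sla in the 4 populations (1 array each); the black line is the probe set read as the gene. Probe sets 1425761_a_at of Nfatc1 and 1456126_at of Malt1 are high in CD25lo Foxp3+ and CD25+ Foxp3- cells and low in the other populations, the black lines of these genes span 1.47-fold and 1.71-fold, and all 4 lines of Sla peak in CD25lo Foxp3+ cells.

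Counted over any probe set, 2 members, Malt1 and Nfatc1, passed the rule for the pairing by neither marker with CD25lo Foxp3+ and CD25+ Foxp3- cells high, against 3.3% of measured genes, and 4 members, Cd247, Grap2, Pag1 and Nfatc3, passed it the other way, against 2.77%. In this pairing CD25 goes with opposite differences in Foxp3+ and Foxp3- cells. Asked directly, 4 members, Bcl10, Malt1, Sla and Nfatc1, had a probe set at least 1.5-fold lower in CD25hi than CD25lo Foxp3+ cells and at least 1.5-fold higher in CD25+ than CD25- Foxp3- cells, against 6.41% of measured genes. Cd247, Grap2, Pag1 and Nfatc3 had one that ran the other way, 4 members against 4.59%. Either count of 4 is 10% of the members.

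Between pairs of arrays, the members were lower on balance in CD25+ than in CD25- Foxp3- cells. In that comparison 3 members were at least 2-fold lower in CD25+ Foxp3- cells, Txk (2.15-fold), Trat1 (3.43-fold) and Dgka (2.45-fold), or 7.5%, against 6.43% of measured genes, and 0 were higher, against 12.1%; with quantile normalization 8 were lower. With the values as deposited, the downward count was thus near the share of all genes, and the upward count was below it. The members as a group were shifted: 33 of 40 were lower, against 4874 of 9622 measured genes. Their median log2 difference was -0.45, against -0.01 over measured genes. Against CD25- Foxp3- cells the CD25hi Foxp3+ array had 0 members at least 2-fold higher (7.09% of genes) and 0 lower (3.74%). The median was -0.20, against 0.02 over genes, and 26 of 40 members were lower, against 4592 of 9622 genes. For CD25lo Foxp3+ cells 3 members were at least 2-fold higher, Lcp2, Nck1 and Sla (9.09% of genes), and 1 was lower, Grap2 (6.88% of genes), with a median of -0.08, against -0.05; read as the mean over a gene's probe sets, the median was 0.008. These 3 comparisons share the CD25- Foxp3- array.

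**Figure D3:**
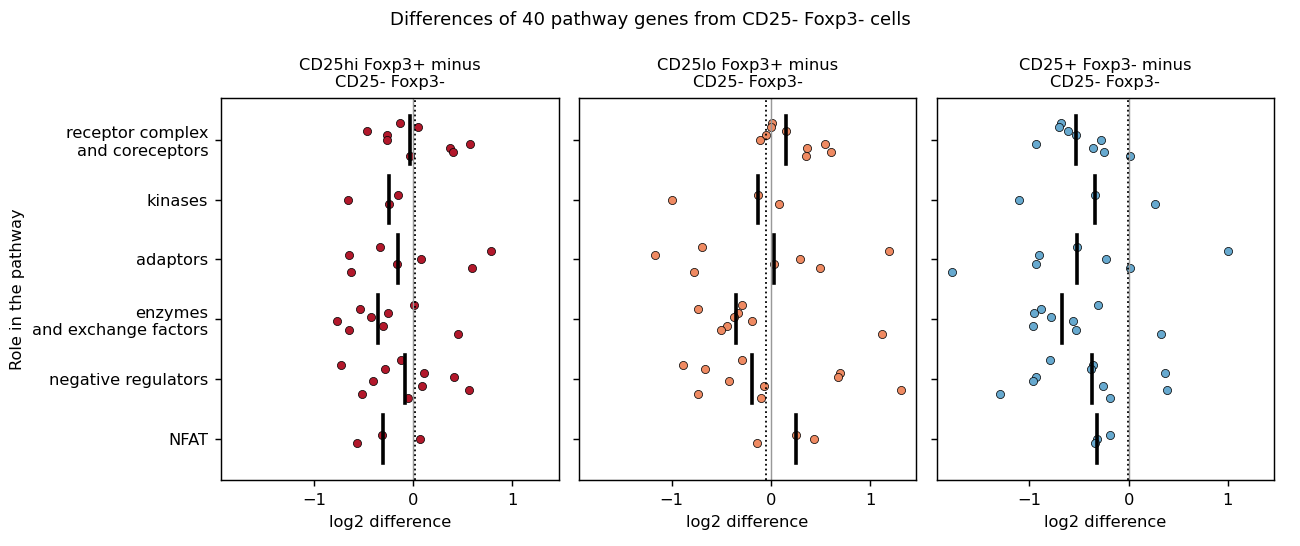
Log2 difference of each member (points, grouped by role) from CD25- Foxp3- cells in CD25hi Foxp3+, CD25lo Foxp3+ and CD25+ Foxp3- cells, 1 array each; black bars are role medians and the dotted line is the median of all measured genes. In CD25+ Foxp3- cells the bars of all 6 roles lie below the dotted line, from -0.32 for NFAT to -0.67 for enzymes and exchange factors.

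By role, the median log2 difference of CD25+ from CD25- Foxp3- cells was -0.53 for the receptor complex and coreceptors, -0.34 for the kinases, -0.52 for the adaptors, -0.67 for the enzymes and exchange factors, -0.37 for the negative regulators and -0.32 for NFAT. In CD25lo Foxp3+ cells the same medians were 0.15, -0.13, 0.03, -0.35, -0.19 and 0.25. In CD25hi Foxp3+ cells they were -0.03, -0.24, -0.16, -0.36, -0.08 and -0.31. The receptor medians in the Foxp3+ arrays cover genes on either side, 4 higher and 5 lower in CD25hi Foxp3+ cells and 6 higher and 3 lower in CD25lo Foxp3+ cells. Of the 8 enzymes and exchange factors, 6 were lower than in CD25- Foxp3- cells in CD25hi Foxp3+, 7 in CD25lo Foxp3+ and 7 in CD25+ Foxp3- cells, and Nck1 was higher in all 3.

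Against CD25+ Foxp3- cells both Foxp3+ arrays were higher. The CD25hi Foxp3+ array had 3 members at least 2-fold higher, Cd2 (2.82-fold), Trat1 (2.21-fold) and Cbl (2.52-fold), against 4.82% of measured genes, and 0 lower, against 6.84%. Of the 40 members 31 were higher, against 5044 of 9622 genes, with a median of 0.31 against 0.03. Read as the mean over a gene's probe sets, 1 member in place of 3 passed in this comparison. The CD25lo Foxp3+ array had the same 3 members at least 2-fold higher, Cd2 (2.78-fold), Trat1 (2.01-fold) and Cbl (3.05-fold), against 5.17% of genes, and 0 lower, against 9.04%. Here 35 of 40 members were higher, against 4751 of 9622 genes, with a median of 0.46 against -0.01. Between the Foxp3+ arrays 0 members were at least 2-fold higher in CD25hi cells (3.21% of genes) and 0 lower (2.5%), and the median was -0.04 against 0.05. The comparison of CD25hi Foxp3+ with CD25+ Foxp3- cells shares an array with each of the other two.

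The other genes of the pathway, from lists of non-members, followed the members in part. Of 40 further kinases and adaptors 36 were measured, and 18 of these (50%) were lowest in CD25+ Foxp3- cells and 20 (55.6%) highest in CD25lo Foxp3+ cells. By the rule for Foxp3, 2 of the 36 stood apart upward (2.8% of measured genes) and 2 downward (1.93%). Vav2, a relative of VAV1, read 136, 127, 62.5 and 30.6. Pik3r1, the regulatory subunit of phosphatidylinositol 3-kinase, read 1327, 1411, 866 and 861. Both were higher in Foxp3+ cells. Themis, which sets receptor signal strength in thymocytes, read 320.4, 235, 703 and 1496. Gab3, a docking protein, read 60.2, 52.3, 113 and 165. Both were lower in Foxp3+ cells.

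Of 31 calcium and calcineurin genes 27 were measured, and 7 (25.9%) were lowest in CD25+ Foxp3- cells. In CD25+ relative to CD25- Foxp3- cells 2 of 27 were at least 2-fold higher (12.1% of measured genes) and 3 lower (6.43%). Camk4, a calmodulin-dependent kinase, read 476, 601, 208 and 618. Itpkb, which phosphorylates inositol trisphosphate, read 1362, 1530.1, 489 and 1449. Both were low in CD25+ Foxp3- cells alone. Atp2b1, a calcium pump of the plasma membrane, read 1271, 1998, 1352 and 543 and was low in CD25- Foxp3- cells. Plcg2, the phospholipase C-gamma of B and myeloid cells, read 13.5, 20.3, 136 and 37.4 and was high in CD25+ Foxp3- cells, with the Foxp3+ readings under the filter of 32.49.

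Of 35 Ras and MAP kinase genes 26 were measured, and 12 (46.2%) were lowest in CD25+ Foxp3- cells. In the same comparison 5 of 26 were at least 2-fold higher, against 12.1% of measured genes, and 4 lower, against 6.43%. Rasgrp2, an exchange factor that acts on Rap1, read 222, 221, 196 and 863. Rasa3, which turns Ras family proteins off, read 1760.1, 1464, 957 and 2976. Both were high in CD25- Foxp3- cells. Spry1, a feedback inhibitor of the Ras branch, read 141, 101, 189 and 33.9 and was low there. Its relative Spry2 read 39.6 in CD25+ Foxp3- cells and was under 10.12 in the other arrays, so it was at least 3.92-fold higher there.

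Of 38 further negative regulators 36 were measured, with 14 (38.9%) lowest in CD25+ Foxp3- cells. This was the list whose median in CD25+ relative to CD25- Foxp3- cells was above 0, at 0.29 (log2), against -0.21 for the further kinases and adaptors, -0.15 for the calcium genes and -0.28 for the Ras and MAP kinase genes. Of the 36 further negative regulators, 20 were higher and 16 lower there. In CD25lo Foxp3+ relative to CD25- Foxp3- cells their median was 0.33, with 27 higher and 9 lower. By Foxp3, 2 of 36 stood apart upward, against 2.8% of measured genes, and 0 downward, against 1.93%. Rgs1, which shortens G protein signals, read 3565, 2748, 1647 and 739. Inpp4b, a phosphoinositide phosphatase, read 2279.9, 3499, 1434 and 978.

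**Figure D4:**
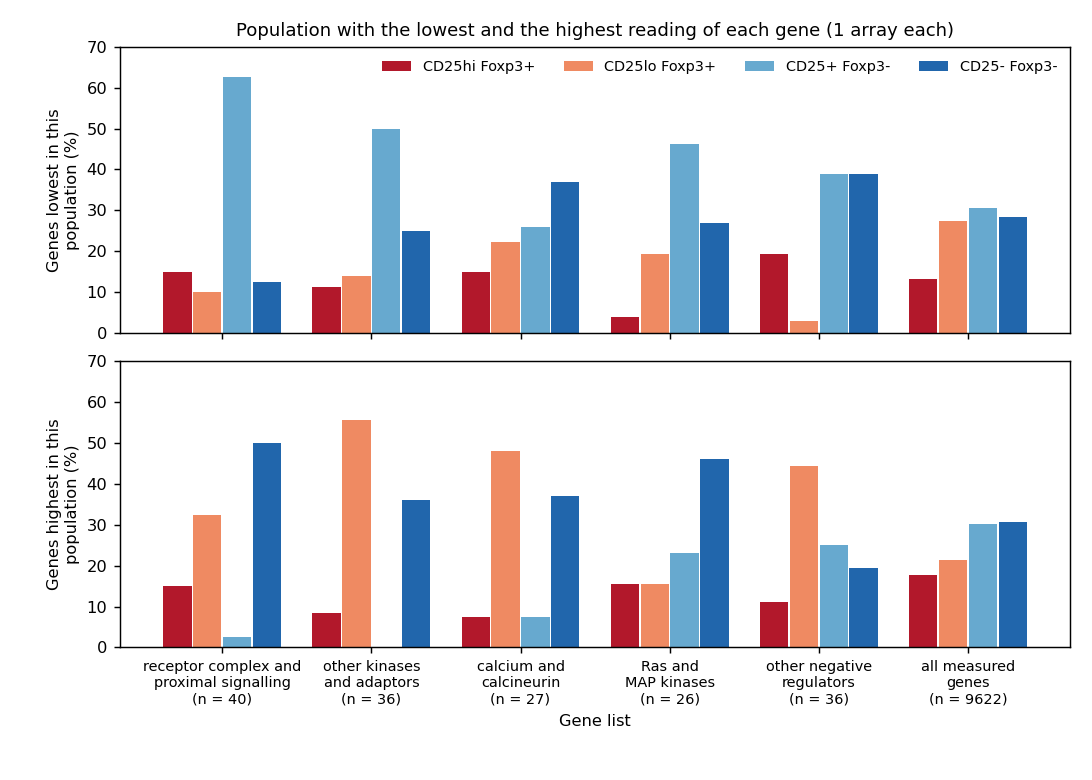
Share of genes (%) whose lowest (upper panel) or highest (lower panel) intensity is in each population, for the members, the 4 lists of other pathway genes and all measured genes; 1 array per population. CD25+ Foxp3- cells hold the lowest reading of 62.5% of members, 50% of other kinases and adaptors and 30.6% of all measured genes.

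Markers of the sorted cells and of other cells differed between the arrays too. Of 7 CD4 T cell markers 6 were measured, none at the floor in any array, with summed intensities of 24735, 28529, 19274 and 26255. This sum was itself lowest in CD25+ Foxp3- cells, but 5 of its 6 genes are members. Cd28, the measured marker that is no member, read 2596, 3602, 3299.8 and 3108 and was not lowest there. Gamma delta T or NKT cell markers summed to 117, 132, 601 and 171 (3 of 6 measured, Sox13 at the floor in all 4 arrays). All 3 were highest in CD25+ Foxp3- cells, but Zbtb16 and Blk reached the filter in that array alone. For Zbtb16 and Blk the filter therefore fixed which array was highest. Most of the sum was Cd160, at 95.0, 100.5, 464 and 125. Red cell markers summed to 183.5, 468, 1643 and 890.4 (4 of 7 measured, Hba-a1 at the floor in all 4). The red cell peak in CD25+ Foxp3- cells was that of Car2, at 1285, and the other 3 genes were highest in CD25- Foxp3- cells. B cell markers summed to 10208, 11949.5, 16405 and 17094 (9 of 12 measured, Pax5 at the floor in all 4), most of it Ighm. Of the 9, 6 peaked in CD25+ Foxp3- cells: Cd22, Blk, Cd74, H2-Eb1, H2-Ab1 and H2-Aa. The 2 that peaked in CD25- Foxp3- cells were Ighm and Ms4a1, which read 15.9, 24.7, 66.7 and 145. Cd79b read 97.2, 118, 58.4 and 69.2 and was lowest in CD25+ Foxp3- cells. Cd79a did not pass the filter and was at the floor in CD25+ Foxp3- cells. The B cell list thus had no common order. Blk stands in this list and in that of gamma delta T or NKT cells. CD8 T and NK cell markers summed to 878, 1470.5, 3034 and 3425 (11 of 12 measured; Ncr1, Klrk1 and Gzmk at the floor in CD25hi Foxp3+ cells). Myeloid markers summed to 1169.6, 1432, 1570.3 and 1740.1 (8 of 12 measured; Itgam and Cd14 at the floor in all 4). Their part in the low readings of the members in CD25+ Foxp3- cells was not tested.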

How the data were processed

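Each of the 4 deposited arrays gives a linear, positive intensity for every probe set. Per the labels, RNA was amplified over 2 cycles and hybridised; no source used here says how probes were summarised and normalized. Of 45101 rows 64 are controls. The platform annotation gives 34945 probe sets exactly 1 gene, 932 several and 9160 none; 34741 were matched by Entrez identifier to RefSeq (GRCm38.p6), which changed 0 symbols. A gene was read from its probe set of highest mean log2 intensity. The members have 94 probe sets, 80 of them past the filter and 14 below it; 13 members have 1 probe set. Each group holds 1 array, so rules of size (1.5-fold between pairs or for 1 array, 2-fold between 2 arrays) replace tests, and no difference has a replicate check. Folds of probe sets near the floor are uncertain. The counting was tested on simulated data.

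Members, lists and rules were chosen with earlier results of these data known. All members are accounted for; values are given for those past a rule and for complexes and families described together, and for up to 4 genes of each other list with the widest gap. Zap70, Cd28 and the marker genes named were chosen after their values were seen. So were further probe sets of Cd4, Ptprc, Lcp2, Zap70, Bcl10, Cbl, Sla, Dgkz and Nfatc1. Another probe set is printed where its difference in a comparison of 2 arrays departs by over 1 (log2), or turns the direction with both at least 1.5-fold; 16 of 40 others did so, in 12 genes. Smaller turns were not counted. Alternatives were median centring, quantile normalization, a floor at the 20th percentile, no filter, a stricter filter and the mean over probe sets. Analyses used Python 3.11.15, numpy 2.4.6 and pandas 2.3.3.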

Additional observations from a re-analysis of the deposited data

Results flagged for a closer look

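Several probe sets differed with CD25 in opposite directions among Foxp3+ and among Foxp3- cells, by at least 1.5-fold each way. The difference between the 2 contrasts was not tested, since each population has 1 array, and all 4 arrays enter each such comparison. Of measured genes, 6.41% had a probe set higher in CD25lo than CD25hi Foxp3+ cells and in CD25+ than CD25- Foxp3- cells, and 4.59% had one that ran the other way.

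In the first direction, Nfatc1 was flagged by 3 probe sets. Probe set 1425761_a_at was 3.49-fold higher in CD25lo than CD25hi Foxp3+ cells and 3.4-fold higher in CD25+ than CD25- Foxp3- cells. The corresponding folds were 1.73 and 2.92 for 1447084_at and 2.15 and 1.57 for 1447085_s_at. The last of these probe sets passed the filter only through the arrays in which it was high, so its order was in part set by the filter. Malt1 gave 3.52 and 1.57 by 1445068_at and 2.3 and 2.03 by 1456126_at. Sla gave 2.68 and 2.08 by 1420818_at and 1.94 and 2.06 by 1447813_x_at. Bcl10 gave 1.71 and 1.54 by 1418972_at, whose intensities were 195.0 and 334 in CD25hi and CD25lo Foxp3+ cells and 258 and 167 in CD25+ and CD25- Foxp3- cells.

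In the other direction, Grap2 by 1460280_at was 2.43-fold higher in CD25hi than CD25lo Foxp3+ cells and 2.1-fold higher in CD25- than CD25+ Foxp3- cells. The corresponding folds were 1.57 and 2.14 for Nfatc3 by 1452497_a_at, which read 721, 458, 443 and 946 in that order. They were 1.53 and 2.08 for Pag1 by 1456403_at, which read 65.1, 42.4, 41.8 and 86.8. For Cd247 by 1420716_at they were 1.88 and 1.53. None of these 12 probe sets is the one from which its gene was read.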

How the results depend on the processing

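Under the 6 alternatives named under processing, no named member's difference changed direction, and 1 of the member medians did: that of CD25lo Foxp3+ against CD25- Foxp3- cells, -0.08, became 0.008 with the mean over probe sets. Of the medians and counts, 120 stayed within their spread or within 1.5 times and 6 moved, and of 72 member differences 69 stayed within theirs. Members lowest in CD25+ Foxp3- cells numbered 25 to 26, members set apart low in them 4 to 7, and members highest in CD25- Foxp3- cells 18 to 23. With the arrays centred on the common median, 1 member was apart by Foxp3 in place of 0. With quantile normalization, 8 members in place of 3 were at least 2-fold apart between CD25+ and CD25- Foxp3- cells. With the mean over a gene's probe sets, 2 members in place of 0 were apart by neither marker, 1 in place of 3 was at least 2-fold apart between CD25hi Foxp3+ and CD25+ Foxp3- cells, 2 in place of 0 between CD25hi and CD25lo Foxp3+ cells, and 1 in place of 2 was set apart in CD25lo Foxp3+ cells; the differences of Nck1 (CD25lo Foxp3+ minus CD25- Foxp3-, log2 1.12 to 0.28), Cbl (CD25lo Foxp3+ minus CD25+ Foxp3-, 1.61 to 1.25) and Sla (CD25lo Foxp3+ minus CD25- Foxp3-, 1.31 to 1.8) moved. An alternative chosen after seeing the data counted a member where any of its probe sets passed, which can only add calls: 1 member was apart by Foxp3, 6 by neither marker, 4 were set apart in CD25lo Foxp3+ and 7 in CD25- Foxp3- cells, and the members at least 2-fold apart from CD25- Foxp3- cells were 1 (CD25hi Foxp3+), 8 (CD25lo Foxp3+) and 13 (CD25+ Foxp3-), with 6 between CD25hi Foxp3+ and CD25+ Foxp3- cells and 4 between the Foxp3+ arrays. For counts over any probe set by 1 array or between 2 arrays, the matching shares of measured genes are not given here. Those counts therefore cannot be read as results about the members. The cause of the other moves was not tested. Each group has 1 array, so no replicate could be left out. No paired analysis was possible because each group has 1 sample. Probe sets of the same gene differed by a standard deviation of 0.33 to 0.52 (log2) between them, depending on the comparison.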
